A study of Homo sapiens with 8 samples.

Results

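The genes described are the 10 that encode the inhibitors of cyclin-dependent kinases (CDKs) and the pocket proteins, taken by symbol from the Entrez gene IDs of the count tables. All 10 of 10 were found among 27936 genes with an ID, and all 10 passed the filter on low counts that left 14455 genes for testing. They are the CIP/KIP inhibitors CDKN1A, CDKN1B and CDKN1C, the INK4 inhibitors CDKN2A, CDKN2B, CDKN2C and CDKN2D, and the pocket protein genes RB1, RBL1 and RBL2. CDKN1C passed only through its counts in the KO libraries.

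The cells were HEK293, an immortalised line from human embryonic kidney, in 8 RNA-seq libraries. Of these, 4 were labelled TIP60 KO with the genotype HEKg1/C9, and 4 were labelled control with the genotype HEKg1. Each arm held 2 libraries with sgRNA1 and 2 with sgRNA2, and all 8 had received doxycycline at 1 µg/ml for 3 days to induce the guides. The labels do not state what C9 stands for or which sequences the guides target. They also do not state whether a line was a clone or whether replicates came from separate cultures, so p-values measure only the spread between these libraries.

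Progress from G1 into S phase depends on CDKs bound to their cyclins. INK4 proteins bind CDK4 and CDK6 and block their pairing with D-type cyclins, whereas CIP/KIP proteins bind assembled cyclin-CDK complexes. Pocket proteins bind E2F transcription factors and hold their target genes down until CDKs phosphorylate the pocket proteins. HEK293 cells carry adenoviral E1A, a protein known to bind pocket proteins. TIP60, encoded by KAT5, is a lysine acetyltransferase that modifies histones and other proteins.

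Totals over genes ranged from 3723992 to 18841774 counts, and the smallest came from control sgRNA1 replicate 2. Some values below are also given without that library, but not every value that it moves. KAT5 itself averaged 18.8 ± 0.964 CPM (reads of the gene in each 1000000 of a TMM-scaled library; SD, n = 4) in KO and 46.8 ± 2.12 CPM in control libraries, so its mRNA was lowered and still present. On the other strand RNASEH2C covers 38.6% of the exonic bases of KAT5. The genes of a HEK293 marker list were present, NEFM being the most abundant at 12397 CPM in KO and 8380 CPM in control libraries. Summed markers of other cell types came to 1.93 to 2.46 CPM in KO and 0.808 to 1.14 CPM in control libraries for leukocytes (most abundant CD14), 19.0 to 23.8 and 14.7 to 25.04 CPM for fibroblasts (COL1A1), and 2.78 to 3.79 and 0 to 0.404 CPM for endothelium (KDR). For epithelial carcinoma (KRT8) they came to 188 to 195 CPM in KO and 155 to 174 CPM in control libraries, and for hepatocytes (APOA1) to 0.233 to 0.594 and 0 to 0.0690 CPM. Only 1 of 6 leukocyte, 3 of 5 fibroblast, 1 of 4 endothelial, 4 of 6 epithelial and 0 of 4 hepatocyte markers passed the filter. SERPINA1 had no count in any library, and CD3E, DCN, LUM, CDH5, KRT5, KRT14, ALB and TTR had none in the control libraries. The part of other cells in the results below was not tested.

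Promoters of 5 members are shown because their genes illustrate the range of the differences described below: the strongly raised CDKN1A, CDKN2B and CDKN2D, the lowered CDKN2A beside CDKN2B on chromosome 9, and RBL1. Each window runs from 250 bases before to 50 bases after a transcription start in RefSeq (GRCh38.p14), read on the strand of the gene. Capitals mark the GC box GGGCGG on either strand and, in RBL1, the E2F words. The windows are chr6:36678464-36678763 on the plus strand for CDKN1A, and on the minus strand chr9:22009256-22009555 for CDKN2B, chr19:10568930-10569229 for CDKN2D, chr9:21995275-21995574 for CDKN2A and chr20:37095948-37096247 for RBL1. The CDKN2A window lies at its upstream start, which belongs to transcripts of the ARF type.
CDKN1A: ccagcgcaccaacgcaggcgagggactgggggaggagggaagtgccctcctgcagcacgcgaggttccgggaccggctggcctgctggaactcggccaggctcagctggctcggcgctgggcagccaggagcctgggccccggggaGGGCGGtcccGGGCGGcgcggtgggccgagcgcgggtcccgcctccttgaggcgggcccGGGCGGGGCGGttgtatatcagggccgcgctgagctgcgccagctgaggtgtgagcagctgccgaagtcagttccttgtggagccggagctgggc
CDKN2B: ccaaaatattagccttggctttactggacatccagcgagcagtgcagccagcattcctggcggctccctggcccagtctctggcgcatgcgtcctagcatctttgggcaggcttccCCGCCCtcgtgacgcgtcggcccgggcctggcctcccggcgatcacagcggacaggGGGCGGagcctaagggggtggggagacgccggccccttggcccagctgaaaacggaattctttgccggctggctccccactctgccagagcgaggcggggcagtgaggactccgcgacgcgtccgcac
CDKN2D: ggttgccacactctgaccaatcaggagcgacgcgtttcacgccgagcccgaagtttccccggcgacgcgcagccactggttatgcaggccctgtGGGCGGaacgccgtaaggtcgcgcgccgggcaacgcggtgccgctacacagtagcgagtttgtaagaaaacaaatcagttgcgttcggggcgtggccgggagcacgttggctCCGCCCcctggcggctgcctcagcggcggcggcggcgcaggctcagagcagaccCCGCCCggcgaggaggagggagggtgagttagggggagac
CDKN2A: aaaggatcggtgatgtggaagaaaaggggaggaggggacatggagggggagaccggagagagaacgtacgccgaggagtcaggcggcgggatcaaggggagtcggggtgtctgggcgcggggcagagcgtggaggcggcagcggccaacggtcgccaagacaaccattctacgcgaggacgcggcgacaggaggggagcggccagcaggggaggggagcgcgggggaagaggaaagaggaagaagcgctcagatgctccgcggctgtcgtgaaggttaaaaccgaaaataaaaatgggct
RBL1: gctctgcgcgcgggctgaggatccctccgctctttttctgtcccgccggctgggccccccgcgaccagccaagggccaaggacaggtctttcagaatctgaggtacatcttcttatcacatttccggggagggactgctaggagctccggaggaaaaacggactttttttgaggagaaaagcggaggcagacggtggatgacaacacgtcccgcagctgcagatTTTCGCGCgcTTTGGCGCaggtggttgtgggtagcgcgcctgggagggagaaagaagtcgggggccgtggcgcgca

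GC boxes, words bound by SP1 and related factors, stood at 4 positions in the CDKN1A window (the last 2 overlap), at 2 in that of CDKN2B and at 3 in that of CDKN2D, and the CDKN2A window held none. The table has a window for 9 members, and that of RB1 (chr13:48476200-48476499) lies at a start inside the gene, so it says nothing of the main RB1 promoter. Of these 9 windows, 5 held the GC box, as did 55.0% of 18303 promoters searched. The others with it were that of the lowered CDKN1B, at 1 position, and that of RBL2, at 2. The windows of the raised CDKN2C and of the slightly lowered RBL1 held none. Whether the box goes with the direction of change was not tested. The E2F words (TTTCGCGC, TTTGGCGC, TTTCCCGC or TTTGCCGC, both strands) stood in 1 of the 9 windows, that of RBL1, at 2 positions, and in 4.14% of all promoters. The exact TATA box word TATAAA (both strands) was in none of the 9 windows and in 9.92% of all promoters. Other forms of the TATA box were not searched. A match is a description of the letters and not of binding.

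Inhibitor mRNA was mostly higher in KO cells, pocket protein mRNA differed little, and the members of each inhibitor family did not move as a block. CDKN1A, CDKN1C, CDKN2B and CDKN2D rose by 2.4-fold or more, CDKN2C and RB1 rose slightly, CDKN1B and CDKN2A fell to 77.2% and 80.1% of the control mean, and RBL1 fell slightly. By edgeR's quasi-likelihood test with Benjamini-Hochberg adjustment over all tested genes, 6 members were higher, 3 lower and 1 not called. The 6 include CDKN1C, which passed the filter only through the KO libraries, so its calls here and within each guide are no support. Of all tested genes, 31.8% were called higher and 31.2% lower, together 63.0%, so a call by itself does not set the members apart. The median log2 fold change of the 10 members was 0.21, against 0.01 for all tested genes. The KO and control libraries did not overlap in CPM for 8 of the 10 members, beside 52.9% of all tested genes (27.3% with KO above, 25.6% with KO below). The median and the 8 both include CDKN1C, whose part in them is no support for the same reason. In bulk RNA, a change in the share of cells that express a gene and a change in RNA per cell cannot be told apart.

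**Figure D1:**
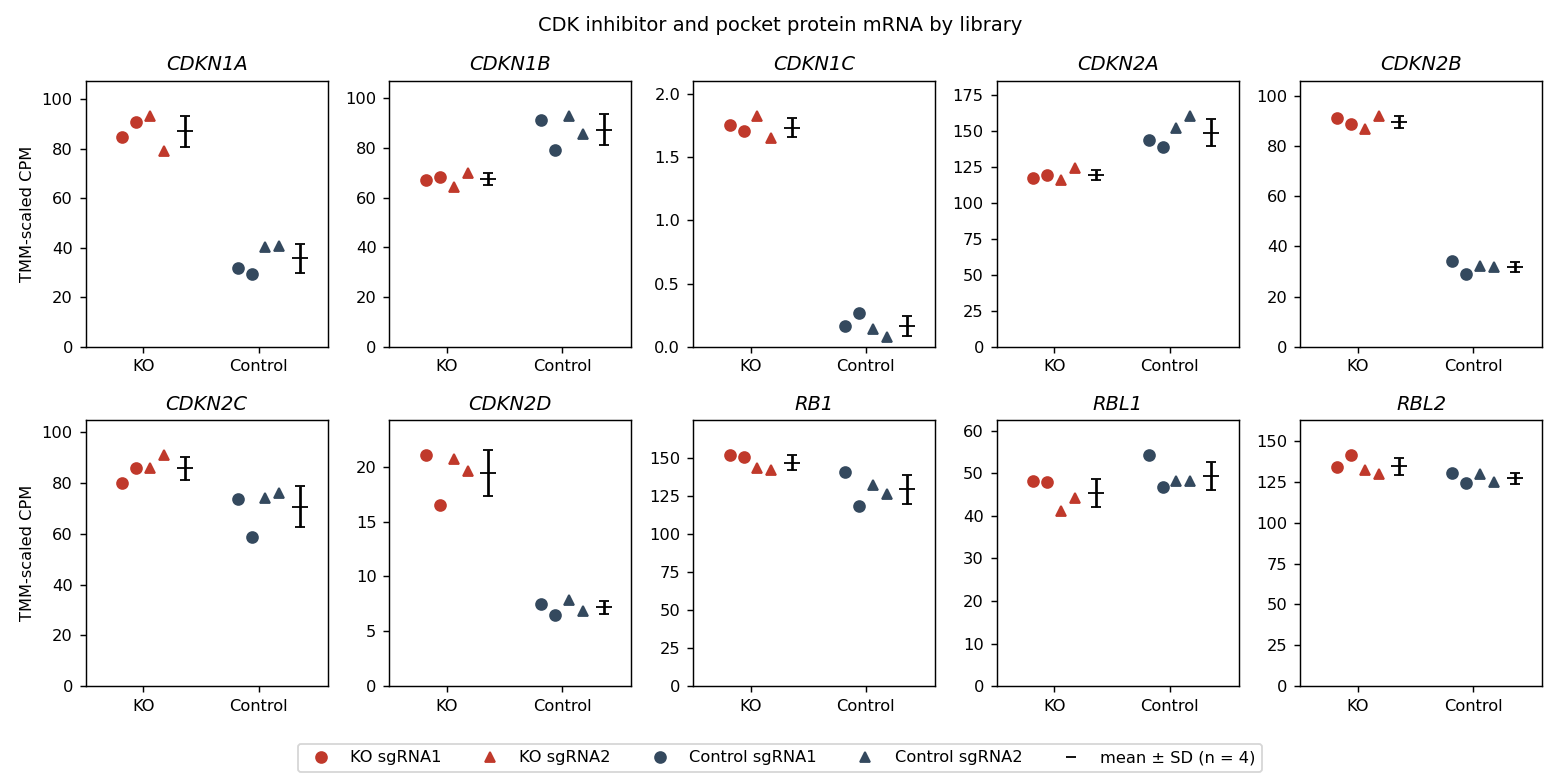
TMM-scaled CPM (y axis, from 0, own scale in each panel) of each member in 4 KO and 4 control libraries, with circles for sgRNA1, triangles for sgRNA2 and the mean ± SD of each arm. KO and control points do not overlap except for RBL1 and RBL2, and the gaps are wide for CDKN1A, CDKN1C, CDKN2B and CDKN2D.

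Among the CIP/KIP genes, CDKN1A (gene ID 1026, GRCh38.p14 chromosome 6, 36676463 to 36687332, the build of all positions given) encodes p21, a CDK inhibitor induced by DNA damage and other stresses. It stood at 84.6 and 90.8 CPM in KO sgRNA1 and 93.4 and 79.3 CPM in KO sgRNA2, against 31.8 and 29.6 CPM in control sgRNA1 and 40.4 and 40.9 CPM in control sgRNA2. Every KO library was above every control library, and the sgRNA2 controls lay above the sgRNA1 controls. The mean was 2.44 times the control mean and the log2 fold change was 1.26 ± 0.073 (SE, adjusted p = 8.68e-12). Of its exonic bases, 4.79% are shared with the lncRNA DINOL on the other strand.

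CDKN1B (gene ID 1027, chromosome 12, 12717368 to 12722369) encodes p27, which restrains cyclin E-CDK2 and is removed by the SKP2 ubiquitin ligase. It stood at 66.9, 68.3, 64.4 and 70.1 CPM in KO libraries, against 91.4, 79.2, 93.0 and 85.7 CPM in control libraries. All KO libraries were below all control libraries, at 77.2% of the control mean (log2 fold change -0.39 ± 0.052, adjusted p = 1.60e-06). Without control sgRNA1 replicate 2 the log2 fold change was -0.43. CDKN1A and CDKN1B therefore moved in opposite directions.

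CDKN1C (gene ID 1028, chromosome 11, 2883218 to 2885775) encodes p57, an imprinted inhibitor active in development. It had 30, 23, 35 and 25 counts in KO libraries, against 2, 1, 2 and 1 counts in control libraries. That is 1.74 ± 0.0738 CPM in KO and 0.163 ± 0.0787 CPM in control libraries (SD, n = 4 each), low in both arms with every KO library above every control library. The pooled CPM ratio was 12.5, with an exact 95% interval of 5.55 to 34.6 that covers counting error only. With counts thinned to the smallest library it no longer passed the filter.

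The INK4 genes divided likewise. CDKN2A (gene ID 1029, chromosome 9, 21967752 to 21995324) encodes p16 and, from another reading frame, ARF, which restrains the ubiquitin ligase MDM2. Counts per gene do not separate these products. CDKN2A stood at 118, 119, 116 and 124 CPM in KO libraries, against 144, 139, 153 and 161 CPM in control libraries. All KO libraries were below all control libraries, at 80.1% of the control mean (log2 fold change -0.33 ± 0.045, adjusted p = 2.68e-06). With CDKN2B-AS1 on the other strand it shares 7.88% of its exonic bases.

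CDKN2B (gene ID 1030, chromosome 9, 22002903 to 22009313), the neighbouring gene for p15, is known as a target of TGF-beta signalling. It stood at 91.3, 88.6, 86.9 and 92.1 CPM in KO libraries, against 34.0, 29.1, 32.1 and 31.7 CPM in control libraries. The arms were far apart relative to their spread, at 2.83 times the control mean (log2 fold change 1.48 ± 0.053, adjusted p = 4.84e-15). This was the smallest p among the members, and 95.1% of tested genes had a smaller log2 fold change.

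CDKN2D (gene ID 1032, chromosome 19, 10566460 to 10568979), the gene for p19, rose by nearly as much from a lower level. It stood at 21.1, 16.5, 20.7 and 19.6 CPM in KO libraries, against 7.51, 6.46, 7.86 and 6.83 CPM in control libraries, with no overlap. Its mean was 2.71 times the control mean (log2 fold change 1.42 ± 0.10, adjusted p = 3.07e-10).

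CDKN2C (gene ID 1031, chromosome 1, 50960745 to 50974634), the gene for p18, differed less. It stood at 80.1, 86.2, 85.9 and 91.1 CPM in KO libraries, against 73.6, 58.7, 74.1 and 76.2 CPM in control libraries. The arms were close but did not overlap, and the lowest value was that of control sgRNA1 replicate 2. The log2 fold change was 0.25 ± 0.055 (adjusted p = 0.000428), and 0.20 without that library (adjusted p = 0.00107).

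The pocket protein genes differed least. RB1 (gene ID 5925, chromosome 13, 48303751 to 48481890), the retinoblastoma tumour suppressor, stood at 152, 150, 143 and 142 CPM in KO libraries, against 141, 119, 132 and 126 CPM in control libraries. The lowest KO library lay just above the highest control library. The log2 fold change was 0.17 ± 0.048 (adjusted p = 0.00488), and 0.12 without control sgRNA1 replicate 2 (adjusted p = 0.0163).

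RBL1 (gene ID 5933, chromosome 20, 36996349 to 37095997) encodes p107, which represses E2F targets in cycling cells. It stood at 48.2, 47.9, 41.1 and 44.3 CPM in KO libraries, against 54.3, 46.9, 48.1 and 48.2 CPM in control libraries. The arms overlapped, and the log2 fold change was -0.15 ± 0.055 (adjusted p = 0.0256). In 8 of 18 alternative analyses RBL1 lost its call while staying lower in KO, with an adjusted p between 0.00346 and 0.343 over the 18. The losses included leaving out control sgRNA1 replicate 1, either control sgRNA2 library or KO sgRNA2 replicate 1, and DESeq2 in place of edgeR. In edgeR, RBL1 also lost its call with library totals alone (-0.11, adjusted p = 0.0776) and without the guide term (-0.13, adjusted p = 0.0716). The same held with counts thinned to the smallest library (-0.10, adjusted p = 0.343). Without control sgRNA1 replicate 2 the log2 fold change of RBL1 was further from 0, at -0.19.

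RBL2 (gene ID 5934, chromosome 16, 53434471 to 53491648) encodes p130, the pocket protein that binds the MuvB core in resting cells. It stood at 134, 141, 132 and 130 CPM in KO libraries, against 131, 124, 130 and 125 CPM in control libraries. The arms overlapped, and its log2 fold change of 0.07 ± 0.043 was not called (adjusted p = 0.155). With library totals alone in place of TMM scaling it was called, at 0.11 (adjusted p = 0.0321). On the other strand RBL2 shares 8.33% of its exonic bases with AKTIP and 9.85% with an unnamed transcript, and RBL1 shares 3.54% with an antisense RNA, so a few reads of these genes may be split.

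For the 8 members without overlap, the exact permutation test of log2 CPM gave a two-sided p of 0.0286. With 4 libraries in each arm it cannot give a smaller one. CDKN1C is among the 8, but it passed the filter only through the KO libraries, so its p is no support. The exact permutation p was 0.20 for RBL1 and 0.0857 for RBL2. 

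Both guide numbers showed the same directions for all 10 members, though RBL1 and RBL2 were not called with either. RBL1 stood at -0.11 ± 0.083 with sgRNA1 and -0.18 ± 0.077 with sgRNA2 (log2 fold change ± SE). RBL2 stood at 0.11 ± 0.064 and 0.04 ± 0.060. Without control sgRNA1 replicate 1, RBL1 with sgRNA1 had the other sign (0.040). The direction of CDKN1C is no support, because CDKN1C passed the filter only through the KO libraries. With sgRNA1, 6 members were called higher and 2 lower, beside 24.3% and 23.3% of all tested genes (together 47.6%). With sgRNA2, 5 were called higher and 2 lower, beside 25.7% and 25.4% of all tested genes (together 51.2%). CDKN2B rose by 1.47 ± 0.082 with sgRNA1 and 1.48 ± 0.074 with sgRNA2, and CDKN2D by 1.39 ± 0.16 and 1.45 ± 0.14 (log2 fold change ± SE). CDKN1A rose by 1.49 ± 0.094 with sgRNA1 and 1.09 ± 0.081 with sgRNA2.

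The difference between the guides for CDKN1A was -0.40 ± 0.13 (sgRNA2 minus sgRNA1). It had an unadjusted p of 0.00528 in edgeR and was not called after adjustment over all genes (adjusted p = 0.99996). CDKN1A averaged 40.7 CPM in control sgRNA2 and 30.7 CPM in control sgRNA1, a log2 difference of 0.38 ± 0.10 for sgRNA2 over sgRNA1 controls (adjusted p = 0.355), while KO sgRNA2 over KO sgRNA1 gave -0.02 ± 0.074. No member was called in the test of the guide difference by edgeR, where 0% of all tested genes were called and 1 member, CDKN1A, had an unadjusted p under 0.05, as did 638 of 14455 genes. Comparing KO sgRNA2 with KO sgRNA1, edgeR called no member and 0% of tested genes, and 1 member, RBL1, had an unadjusted p under 0.05, as did 613 of 14455 genes. Comparing control sgRNA2 with control sgRNA1, it called no member, with 0.0277% of tested genes called (0.00692% higher, 0.0208% lower), and CDKN1A and CDKN2A, 2 members, had an unadjusted p under 0.05, as did 1192 of 14455 genes.

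Several calls within a guide were lost when 1 library was left out. Without control sgRNA1 replicate 1, the sgRNA1 change of CDKN1B was -0.22 and that of CDKN1C was 2.65, neither of them called. CDKN2C and RB1 moved up to 0.50 and 0.35. CDKN2C and RB1 were not called with sgRNA1 without KO sgRNA1 replicate 2, at 0.22 (adjusted p = 0.112) and 0.19 (adjusted p = 0.121), and RB1 not without KO sgRNA1 replicate 1, at 0.18 (adjusted p = 0.154). Without control sgRNA2 replicate 1 or 2, RB1 with sgRNA1 stood at 0.20 and 0.19 (adjusted p = 0.0531 and 0.0602). Without control sgRNA1 replicate 2, the sgRNA1 change of CDKN2C was 0.17 (adjusted p = 0.0799) and that of RB1 was 0.09 (adjusted p = 0.241). With sgRNA2, CDKN2C was not called without KO sgRNA2 replicate 2 or without either control sgRNA2 library, at 0.19, 0.21 and 0.24. Conversely, with sgRNA2 RB1 and RBL1 were called without either control sgRNA1 library, at 0.13 to 0.14 and -0.19 to -0.18, and RBL1 also without KO sgRNA2 replicate 2 (-0.23, adjusted p = 0.0474).

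**Figure D2:**
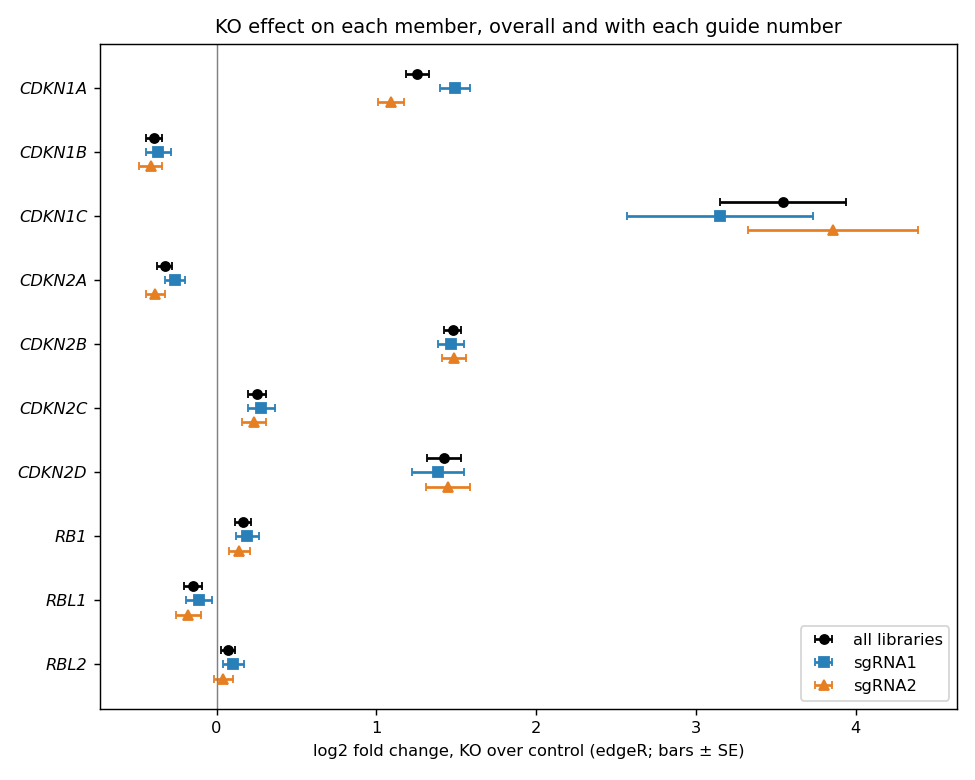
Log2 fold changes of KO over control (x axis, edgeR, bars ± SE) of each member (y axis) from all 8 libraries and with each guide number. The sgRNA1 and sgRNA2 points lie on the same side of 0 for every member, and CDKN1A shows the gap of -0.40 between guides.

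Levels of different members were compared only as TMM-scaled CPM per kilobase of the deposited gene length. In KO libraries the order of levels was CDKN2C (34.6 ± 1.81), CDKN1A (33.0 ± 2.40), RB1 (30.7 ± 1.03), CDKN1B (26.7 ± 0.961), RBL2 (26.4 ± 0.990), CDKN2B (22.5 ± 0.604), CDKN2A (21.0 ± 0.604), CDKN2D (13.7 ± 1.46), RBL1 (7.30 ± 0.542) and CDKN1C (0.876 ± 0.0373; CPM per kilobase, SD, n = 4). Overlapping neighbours in that order were CDKN2C with CDKN1A, CDKN1A with RB1, CDKN1B with RBL2 and CDKN2B with CDKN2A.

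In control libraries CDKN1B led at 34.6 ± 2.49 CPM per kilobase and did not overlap CDKN2C at 28.5 ± 3.25. RB1 at 27.1 ± 1.98, CDKN2A at 26.2 ± 1.70 and RBL2 at 25.01 ± 0.667 CPM per kilobase followed, each overlapping the one before. CDKN1A at 13.5 ± 2.21 stood apart, CDKN2B at 7.97 ± 0.509 and RBL1 at 7.94 ± 0.536 overlapped, and CDKN2D at 5.04 ± 0.446 and CDKN1C at 0.0820 ± 0.0397 CPM per kilobase were lowest. CDKN1A was thus the second most abundant member in KO and the sixth in control libraries.

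**Figure D3:**
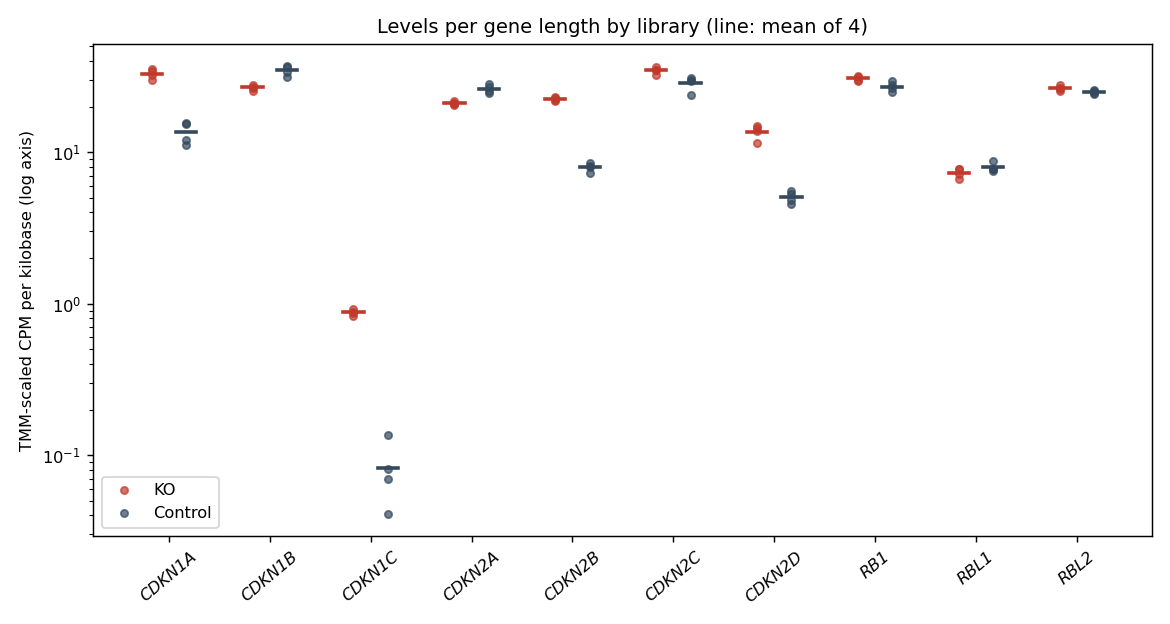
TMM-scaled CPM per kilobase of gene length (log y axis) of each member in 4 KO and 4 control libraries, with a line at the mean. CDKN1C lies below 1 in both arms, and CDKN1A, CDKN2B and CDKN2D show the widest gaps among the other members.

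Composition within the inhibitor families shifted with these changes. Of the summed CIP/KIP level per kilobase, CDKN1A made up 51.2 to 57.3% in KO and 24.9 to 31.3% in control libraries, and CDKN1B made up 41.2 to 47.3% and 68.6 to 74.9%. Of the summed INK4 level, CDKN2A made up 22.4 to 23.4% in KO and 36.8 to 40.8% in control libraries, and CDKN2B made up 23.8 to 25.2% and 11.1 to 12.4%. CDKN2D made up 12.9 to 16.3% in KO and 6.69 to 7.86% in control libraries. CDKN2C made up 35.6 to 38.8% in KO and 39.5 to 43.1% in control libraries, also without overlap. The 39.5% was that of control sgRNA1 replicate 2, and the other control libraries stood at 42.5% or more.

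CDKN2B and CDKN2A, side by side on chromosome 9, had nearly equal levels per kilobase in KO libraries, with a log2 ratio of 0.08 to 0.14, against -1.83 to -1.57 in control libraries. The summed levels were 58.7 to 62.3 CPM per kilobase in KO and 42.7 to 52.3 in control libraries for CIP/KIP, and 89.6 to 95.5 and 59.99 to 71.8 for INK4. For the pocket proteins they were 62.3 to 66.9 and 56.7 to 63.9. Control sgRNA1 replicate 2 was the lowest control library in each sum. The next lowest control values were 48.4 for CIP/KIP, 68.8 for INK4 and 58.6 for the pocket proteins. These sums describe chosen genes and were not tested.

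**Figure D4:**
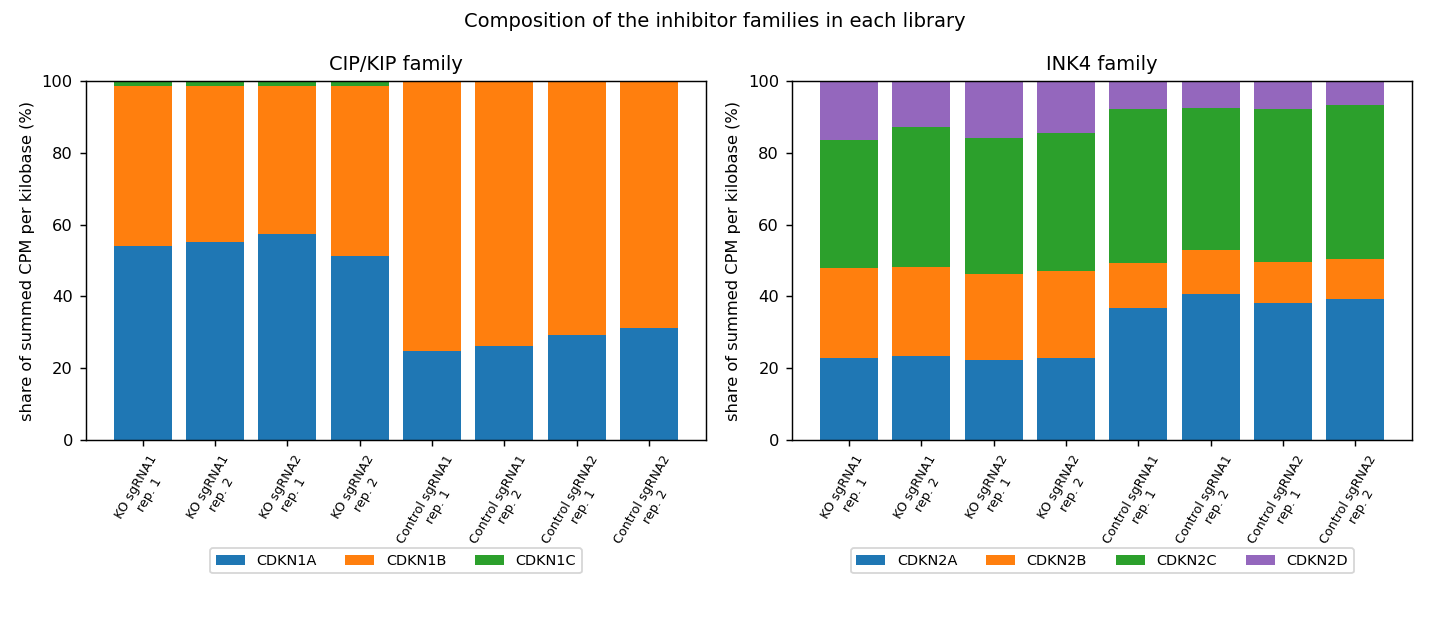
Share (y axis, percent) of each member in the summed CPM per kilobase of its inhibitor family, 1 bar for each of the 4 KO and 4 control libraries. CDKN1A holds 51.2 to 57.3% of the CIP/KIP sum in KO and 24.9 to 31.3% in control libraries.

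The nearest tested genes on either side of each member are described beside it. Of these 19 genes, 8 were called higher, 6 lower and 5 not in KO (median log2 fold change 0.01), beside 31.8% higher and 31.2% lower of all tested genes. The 8 include CDKN2A-AS1 and MROH8, which passed the filter only through the KO libraries. SRSF3 and PPIL1 on either side of CDKN1A were slightly lower (-0.27 ± 0.045 and -0.18 ± 0.046, log2 fold change ± SE), and KRI1, which lies 450 bases from CDKN2D, was lower by edgeR (-0.53 ± 0.046, adjusted p = 3.75e-09). CREBL2 (0.34 ± 0.061) and APOLD1 (0.71 ± 0.089), which flank the lowered CDKN1B, were higher.

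Beside RB1, ITM2B was higher (0.54 ± 0.043) and LPAR6, which lies within RB1, was lower (-0.65 ± 0.15). AKTIP, which overlaps the end of RBL2, was higher (0.54 ± 0.077), and SLC44A2 near CDKN2D was higher (0.40 ± 0.083). FAF1, next to CDKN2C, was higher by about as much as that gene (0.26 ± 0.049), and SAMHD1 near RBL1 was lower (-0.14 ± 0.051). Not called were RNF11 on the other side of CDKN2C (-0.007 ± 0.051), DMRTA1 beyond CDKN2B (0.006 ± 0.21) and CHD9 beside RBL2 (-0.05 ± 0.050).

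At the chromosome 9 locus, the antisense lncRNA CDKN2A-AS1 (chromosome 9, 21967139 to 21967754), which meets the 3′ end of CDKN2A, had 21, 23, 25 and 10 counts in KO libraries, against 0, 0, 0 and 1 counts in control libraries. The pooled CPM ratio was 52.2, with an exact 95% counting interval of 9.11 to 2089, and the gene passed the filter only through the KO libraries. CDKN2A itself was lower, and without the strand setting of the counting, reads of the 2 genes cannot be told apart where they meet. CDKN2B-AS1, the lncRNA also called ANRIL, spans CDKN2B on the other strand. It averaged 4.98 ± 0.639 CPM in KO and 5.33 ± 0.646 CPM in control libraries (SD, n = 4 each; log2 fold change -0.08 ± 0.15, adjusted p = 0.657).

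Near CDKN1C, the imprinted potassium channel gene KCNQ1 was lower, at 0.923 ± 0.141 CPM in KO and 1.75 ± 0.419 CPM in control libraries (log2 fold change -1.002 ± 0.26, adjusted p = 0.00235). NAP1L4 on the other side had a log2 fold change of 0.04 ± 0.18 (adjusted p = 0.853). KCNQ1OT1, the lncRNA that silences CDKN1C on the paternal chromosome and was picked after its values were seen, rose to 9.47 ± 0.657 CPM in KO, against 5.61 ± 1.16 CPM in control libraries (log2 fold change 0.83 ± 0.13, adjusted p = 1.28e-05). Next to RBL1, MROH8 had 112 counts in KO and 12 in control libraries (CPM ratio 6.17, exact 95% counting interval 3.40 to 12.3) and passed the filter only through the KO libraries.

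**Figure D5:**
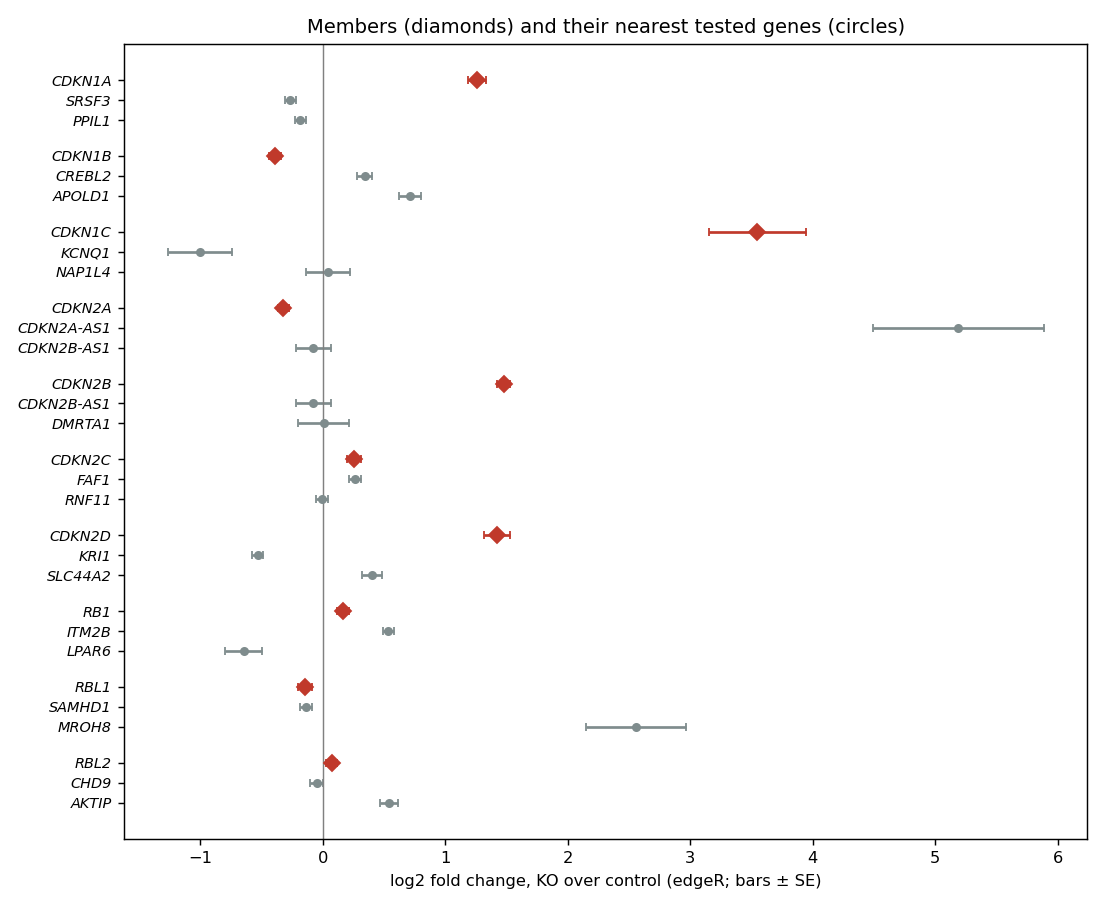
Log2 fold changes of KO over control (x axis, edgeR, bars ± SE) of the members (diamonds) and of the nearest tested gene on either side of each (circles). CDKN2A-AS1 lies far to the right of CDKN2A, and CDKN2B-AS1 lies near 0 beside the raised CDKN2B.

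The lists of genes these proteins act on or are controlled by were chosen with earlier results of these data known, and their counts are read beside the 31.8% of all tested genes called higher and 31.2% called lower (median 0.01 on the log2 scale). Of the CDKs and cyclins, 9 of 15 tested were lower and 4 higher (median log2 fold change -0.36). CCND2 (21.96 ± 0.921 CPM in KO, 52.7 ± 6.09 CPM in control libraries; SD, n = 4 each) and CCND1 (91.0 ± 3.46 and 166 ± 8.91 CPM), D-type cyclins of CDK4 and CDK6, fell, with log2 fold changes of -1.27 ± 0.069 and -0.87 ± 0.047. CCNA2, the S-phase cyclin, was also lower (-0.52 ± 0.043).

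Of the E2F and DP factors, through which pocket proteins act, 6 of 10 tested were lower and 1 higher, with a median of -0.19 (all tested genes 31.2% lower and 31.8% higher). TFDP1, the DNA-binding partner of E2F proteins, averaged 354 ± 4.04 CPM in KO and 510 ± 15.1 CPM in control libraries, a log2 fold change of -0.53 ± 0.042. The atypical repressor E2F8 (-0.66 ± 0.065) and the pocket protein partner E2F5 (-0.35 ± 0.058) were also lower.

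Of the MuvB core, which joins RBL1 or RBL2 in the DREAM complex, and its partners, 4 of 8 were lower and 2 higher, with a median of -0.05, beside 63.0% of all tested genes called in either direction. The DNA-binding subunit LIN54 rose by 0.46 ± 0.050, while the histone-binding RBBP4 (-0.38 ± 0.042) and the activator MYBL2 (-0.23 ± 0.042) were lower. Of the E2F target genes, 23 of 30 were lower and 2 higher, with a median of -0.21, beside 31.2% lower and 31.8% higher over all tested genes. UHRF1 (-0.62 ± 0.045) and the replicative helicase gene MCM2 (-0.49 ± 0.040) were lower, whereas the ribonucleotide reductase subunit RRM2 rose by 0.42 ± 0.044.

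Of the ubiquitin ligase genes that degrade CDK inhibitors, 8 of 13 were lower and 1 higher, with a median of -0.21 (all tested genes 31.2% and 31.8%). SKP2, the receptor that marks CDKN1B protein for degradation, averaged 108 ± 4.90 CPM in KO and 155 ± 10.4 CPM in control libraries (log2 fold change -0.53 ± 0.050). The scaffold CUL4A was lower (-0.60 ± 0.044), and SKP1, the adaptor shared by many ligases, rose by 0.63 ± 0.047. Of the regulators of inhibitor transcription, 10 of 23 were higher and 7 lower, with a median of 0.03 (all tested genes 31.8% and 31.2%). KLF4, an activator of CDKN1A, averaged 19.5 ± 1.77 CPM in KO and 6.34 ± 1.47 CPM in control libraries (log2 fold change 1.72 ± 0.12). MYC, a repressor of CDKN1A and CDKN2B, rose by 0.74 ± 0.049 and TBX3, a repressor of CDKN2A, by 0.78 ± 0.063.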

How the data were processed

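The authors deposited raw counts per gene, 1 table for each of 8 HEK293 libraries, with each gene's length, per the file headers. Per the labels' protocols, libraries were stranded TruSeq mRNA libraries read as 80 bp pairs. Per the submitters' processing notes, featureCounts was used on hg38. For the aligner, annotation release, strand setting and filters, nothing is given in the sources used here. Of 28395 entries, 459 without an ID were left out, with 0.0284 to 0.0425% of the counts, and 27744 of 27936 genes were given symbols and positions from RefSeq GRCh38.p14. Exon overlap was measured on GENCODE release 29.

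Genes were filtered by filterByExpr over the 4 groups of guide and arm (minimum count 10, minimum total 15). KO was compared with control by edgeR 4.0.16 (quasi-likelihood F test, TMM, term for guide number), with contrasts in a 4-group model for each guide. An adjusted p under 0.05 was called. The biological coefficient of variation was 0.0473, and a simulation was used to check the fit. Single values were tested by exact permutation (scipy 1.17.1). CPM are TMM-scaled, and promoter words were searched on both strands of RefSeq windows. Intervals cover counting error only.

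The members and gene lists were chosen with earlier results of these data known. Genes named were all members, KAT5, the 3 smallest p of each list, the nearest tested neighbours, the 3 nearest patterns of CDKN1A, CDKN2A and CDKN2B, and the most abundant marker of each cell type. Alternatives were other scalings, filters, DESeq2 1.42.0, limma-voom (limma 3.58.1), other covariates, robust dispersion, thinned counts and each library left out.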

Additional observations from a re-analysis of the deposited data

Results flagged for a closer look

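CDKN2C in the control libraries had 1 value far from the others. Control sgRNA1 replicate 2 stood at 58.7 CPM, below the other control libraries at 73.6 to 76.2 CPM. The gap was 0.848 of the whole range, above Dixon's 95% critical value of 0.829 for 4 samples. That library is also the one with the fewest counts, and the part of depth in this value was not tested. Among the control libraries it also held the lowest CPM of CDKN1A, CDKN1B, CDKN2A, CDKN2B, CDKN2D, RB1, RBL1 and RBL2. A low value in that library was therefore not particular to CDKN2C. For CDKN1C it held the highest, 0.269 CPM, which rests on 1 count. Chance flags about 1 in 20 such groups, and 20 groups, each member in each arm, were examined.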

How the results depend on the processing

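CDKN1A, CDKN1B, CDKN2A, CDKN2B, CDKN2C, CDKN2D and RB1 kept their direction and call in all 18 alternatives to the comparison of all libraries. The log2 fold change ranged from 1.19 to 1.41 for CDKN1A, from -0.46 to -0.36 for CDKN1B, from -0.35 to -0.28 for CDKN2A, from 1.44 to 1.51 for CDKN2B, from 0.20 to 0.33 for CDKN2C, from 1.35 to 1.48 for CDKN2D and from 0.12 to 0.20 for RB1. Called genes numbered 6508 to 9636 over these alternatives, against 9109. Within sgRNA1, 1 member was called lower with thinned counts and 1 to 2 with a library left out, and without control sgRNA1 replicate 1 RBL1 had the other sign (0.040, not called), in a range of -0.18 to 0.040 with a library left out. Within sgRNA2, thinning left 4527 called genes, against 7394. The guide difference was called for 11 genes without a filter and for 0 to 25 with a library left out, 25 of them without control sgRNA1 replicate 1, 23 without control sgRNA1 replicate 2 and 3 without KO sgRNA2 replicate 1, with no member among them; the cause was not tested. Libraries of KO and control with the same guide and replicate number did not deviate together (r = 0.00584 and 0.0288 across genes). Whether they shared a culture or preparation is not stated and was not tested. A replicate block called 8980 genes and 6 members higher and 3 lower. CPM per kilobase and TPM gave the same order of all 10 members in each arm. Both divide the same counts by the same lengths, so the order within a library cannot differ and this is no independent check. Depth limits CDKN1C most, with 6 control counts in all: it entered the tests only through the KO libraries, and its fitted values (3.13 to 3.67 in 17 alternatives) say nothing of stability.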

Other observations

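Among 12318 other tested genes (mean log2 CPM 1 or more), those whose centred log2 CPM over the 8 libraries lay nearest to CDKN2B were PHLDA1 (Euclidean distance 0.177), FOXC1 (0.214) and WDR47 (0.223), with log2 fold changes of 1.49 ± 0.097, 1.43 ± 0.043 and 1.44 ± 0.056 (SE). Nearest to CDKN1A were NDRG4 (0.201), SLC16A4 (0.245) and RGL1 (0.258). Nearest to CDKN2A were DYNC2I2 (0.0679), ACOT9 (0.0916) and MYL6B (0.0922). These distances rest on 8 libraries in 2 arms and mostly follow the size of the difference between KO and control.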
